A study of Homo sapiens with 3 samples.

Results

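The BCL2 family genes are described here in TE5, an established human line of esophageal squamous carcinoma cells, after knockdown of the zinc finger transcription factor KLF5. The members were 10 genes taken by name: the BH3-only genes BBC3, PMAIP1, BCL2L11, BMF and BIK, the effectors BAX and BAK1, and the anti-apoptotic genes BCL2, BCL2L1 and MCL1. They held 68 of the 181857 transcripts and 10 of the 52992 genes with a value, and all 10 were among the 20629 genes that passed the filter on low counts. RNA-seq libraries came from TE5 cells transfected with shKLF5, a short hairpin RNA construct against KLF5 (2 libraries, numbered 1 and 2), or with a scrambled control called scramble (1 library), each harvested after 48 h. The labels do not say whether the numbers mark separate hairpins or separate cultures, so any p-value below reflects how far these libraries spread, possibly for technical reasons, with the lone scramble library taken to spread alike.

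Proteins of this family decide whether the outer membrane of the mitochondrion is opened in apoptosis. BAX and BAK1 (BAK) form the pore, BCL2, BCL2L1 (BCL-xL) and MCL1 hold them in check, and BH3-only proteins, which share with the rest of the family a short helix called BH3, bind the guardians or activate the pore formers. Transcription is a main control point of the BH3-only genes: BBC3 (PUMA) and PMAIP1 (NOXA) are known targets of stress pathways, BCL2L11 (BIM) of FOXO factors, and BMF responds to loss of attachment.

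The libraries held 33544752 and 32720563 estimated counts with shKLF5 and 33448976 with scramble. KLF5 (ENSG00000102554, GRCh38 chromosome 13, 73054976 to 73077542) had 1333 and 1531 counts in shKLF5 libraries 1 and 2, against 8402 in scramble, a log2 fold change of -2.96 (SE 0.34; adjusted p 0.182 by edgeR's quasi-likelihood test and 1.51e-06 by DESeq2). Of the estimated counts, 26.9% and 30.9% with shKLF5 and 31.4% with scramble came from mitochondrially encoded mRNAs. The 10 squamous epithelial markers summed to 1316 and 743 TPM (a level corrected for transcript length, with an equal total per library) in the shKLF5 libraries and to 3837 TPM in scramble. These markers were thus present in each library, at a lower sum with shKLF5. A sum does not show whether squamous identity held there, and the markers did not move alike. KRT14 had 37 and 10 counts with shKLF5 against 659, and KRT18 had 1025 and 1127 against 764. The log2 fold change was -5.22 for KRT14, -3.01 for KRT5 and -2.59 for KRT6A, while KRT18 alone had a positive value, 0.09. Markers of leukocytes summed to 2.36 and 3.12 TPM with shKLF5 against 0.527 TPM in scramble, those of endothelium to 1.09 and 1.36 TPM against 0.324 TPM, and those of fibroblasts, mostly from COL1A1, to 23.4 and 15.0 TPM against 13.6 TPM. Within the leukocyte sum ITGAM had 1.15 and 2.04 TPM with shKLF5 against 0.0820 TPM. Within the endothelial sum VWF had 0.916 and 1.26 TPM against 0.324 TPM. CD3E, LYZ, CDH5 and KDR were at 0 counts in scramble and at 2 to 14 counts in the shKLF5 libraries, and the part of other cell types in the results was not tested.

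The family was led by MCL1, BAX and BCL2L1 in every library, while PMAIP1 stood higher in the order with shKLF5. In the shKLF5 libraries the levels were 64.3 ± 17.3 TPM for MCL1 and 51.4 ± 2.45 TPM for BAX (SD, n = 2 each). BCL2L1 followed at 29.4 ± 7.91 TPM, PMAIP1 at 22.2 ± 10.6 TPM and BAK1 at 16.6 ± 2.27 TPM (SD, n = 2 each). BCL2L11 stood at 9.40 ± 2.31 TPM and BIK at 8.60 ± 4.24 TPM, BBC3 at 4.12 ± 3.48 TPM, BMF at 3.90 ± 2.25 TPM and BCL2 at 1.63 ± 0.828 TPM (SD, n = 2 each). The ranges of mean ± SD of neighbours in this order overlapped except at the steps from BAX to BCL2L1 and from BAK1 to BCL2L11. The step from BAX to BCL2L1 did not hold for protein-coding transcripts alone. Those of BAX had 24.6 and 20.7 TPM with shKLF5 and 17.3 TPM in scramble. Those of BCL2L1 had 23.8 and 35.0 TPM against 21.2 TPM. In estimated counts BCL2L1 was above BAX in every library. In scramble, without a replicate, the order was MCL1 at 36.8 TPM, BAX at 30.4, BCL2L1 at 21.2, BAK1 at 7.83, BCL2L11 at 7.31, BIK at 6.87, PMAIP1 at 4.53, BMF at 1.81, BCL2 at 1.33 and BBC3 at 0.591 TPM. PMAIP1 was thus the fifth and the fourth of the 10 in shKLF5 libraries 1 and 2, against the seventh in scramble.

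**Figure D1:**
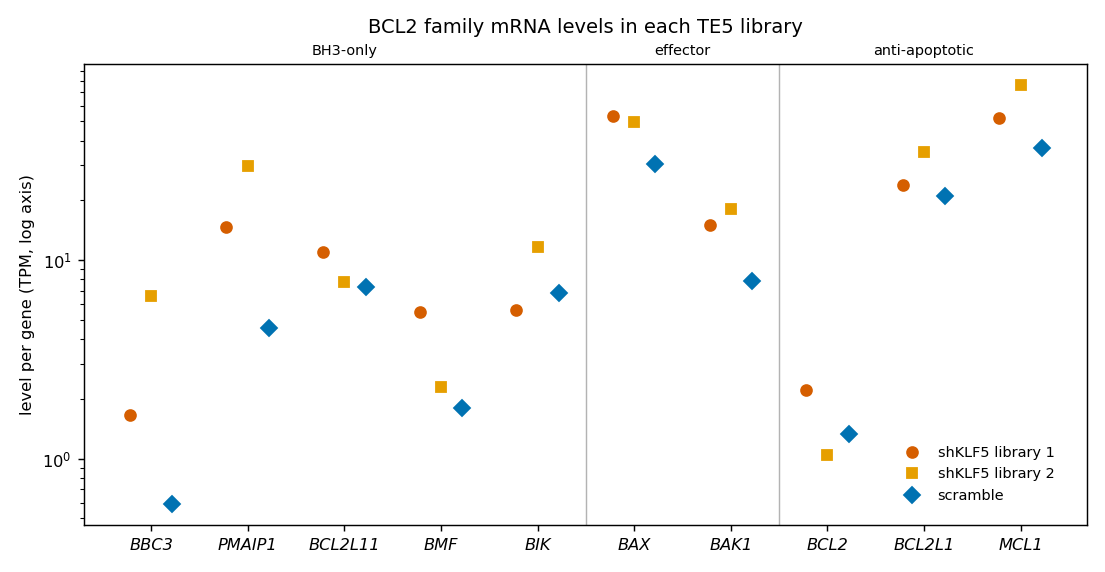
Level of each of the 10 genes in TPM (log axis) in shKLF5 library 1 (circles), shKLF5 library 2 (squares) and scramble (diamonds), with the genes grouped by class. On this scale, on which most genes were higher with shKLF5, all but BIK and BCL2 lay above scramble in both shKLF5 libraries, MCL1 and BCL2L1 included, while BIK and BCL2 lay on either side of it.

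TPM values were higher in the shKLF5 libraries for most genes: with 0.1 added before taking log2, the median difference over all genes tested was 0.43. Differences between groups are therefore given below from CPM, the share of a library's counts after TMM scaling, which sets most genes level between libraries, where the median log2 fold change of all genes was 0.04. By edgeR's quasi-likelihood test 0 of the 10 members reached a Benjamini-Hochberg adjusted p under 0.05, and 0 of all genes did (0%). DESeq2 called 116 genes (0.562%) and edgeR's legacy fit 21 (0.102%), none of them a member. At an unadjusted p under 0.05, 3 members, BBC3, PMAIP1 and BMF, were higher with shKLF5, against 5.68% of all genes, and 0 were lower, against 3.50%. The same 3, all of them BH3-only genes, had a fitted log2 fold change of at least 1, against 16.0% of all genes, and 0 stood at -1 or lower, against 5.18%.

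BBC3 (ENSG00000105327, GRCh38 chromosome 19, 47220822 to 47232766, minus strand) encodes PUMA, a BH3-only protein that binds every anti-apoptotic member. It had 77 and 294 estimated counts in shKLF5 libraries 1 and 2, against 22 in scramble. The exact Poisson 95% intervals, which cover counting error only, were 60.8 to 96.2 and 261 to 330 counts with shKLF5 and 13.8 to 33.3 counts with scramble. Both shKLF5 libraries were thus above scramble, and library 2 was well above library 1. The level was 2.15 and 8.46 CPM with shKLF5, a mean of 5.30 ± 4.46 CPM (SD, n = 2), against 0.828 CPM. Fitted over both libraries, BBC3 was higher by 2.67 on the log2 scale (SE 0.93, 95% confidence interval or CI 0.51 to 4.83), with edgeR's adjusted p at 0.476 and that of DESeq2 at 0.212. Set alone against scramble, library 1 stood at 1.31 and library 2 at 3.26 on the log2 scale. Whether fewer cells with a transcript or less of it per cell sets a level cannot be told apart in bulk RNA, here as for the other genes.

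PMAIP1 (ENSG00000141682, chromosome 18, 59899948 to 59904306, plus strand) encodes NOXA, which binds chiefly MCL1. It had 637 and 1200 counts in the shKLF5 libraries, against 207 in scramble, or 17.8 and 34.5 CPM against 7.79 CPM. Both shKLF5 libraries lay above scramble, by 2.27-fold in library 1 and 4.41-fold in library 2. The log2 fold change was 1.75 (SE 0.54, 95% CI 0.51 to 2.99), with edgeR's adjusted p at 0.474 and that of DESeq2 at 0.208. Against MCL1, the partner it binds, the ratio of TPM was 0.282 and 0.388 with shKLF5 and 0.123 with scramble.

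BMF (ENSG00000104081, chromosome 15, 40087890 to 40108892, minus strand), the BH3-only protein tied to detachment from matrix, had 342 and 204 counts with shKLF5 against 79 with scramble. Its CPM was 9.54 and 5.87 in the shKLF5 libraries and 2.97 in scramble, and here library 1 was the higher one. The log2 fold change was 1.37 (SE 0.56, 95% CI 0.08 to 2.67; adjusted p 0.525 by edgeR's quasi-likelihood test). The gap was narrower per length: 5.49 and 2.31 TPM against 1.81 TPM, and with counts scaled by length the log2 fold change was 0.63. In scramble 65.1% of the BMF level was assigned to BMF-209, a short transcript of 747 bases, against 28.2% and 0% in the shKLF5 libraries. That share rested on 21.3 estimated counts in scramble, which were 26.9% of the BMF counts there.

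The other BH3-only members, BCL2L11 and BIK, did not share this pattern. BCL2L11 (ENSG00000153094, chromosome 2, 111119378 to 111168447, plus strand), which encodes BIM, had 453 and 340 counts with shKLF5 against 364 with scramble, or 12.6 and 9.78 CPM against 13.7 CPM. Its log2 fold change was -0.29 (95% CI -1.29 to 0.71). It came to 0.14 when libraries were scaled by size alone, where the median of all genes was 0.47. BIK (ENSG00000100290, chromosome 22, 43110748 to 43129712, plus strand), which encodes a BH3-only protein of the endoplasmic reticulum, had 132 and 286 counts against 168. The shKLF5 libraries lay on either side of scramble, at 3.68 and 8.23 CPM against 6.32 CPM. The log2 fold change was -0.09 (95% CI -1.44 to 1.27), and 0.34 with library size alone, also below that median of 0.47. Reads of BCL2L11 that overlap the antisense gene MIR4435-2HG (752 and 1082 counts against 418) cannot be told apart, since the use of strand is not given.

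**Figure D2:**
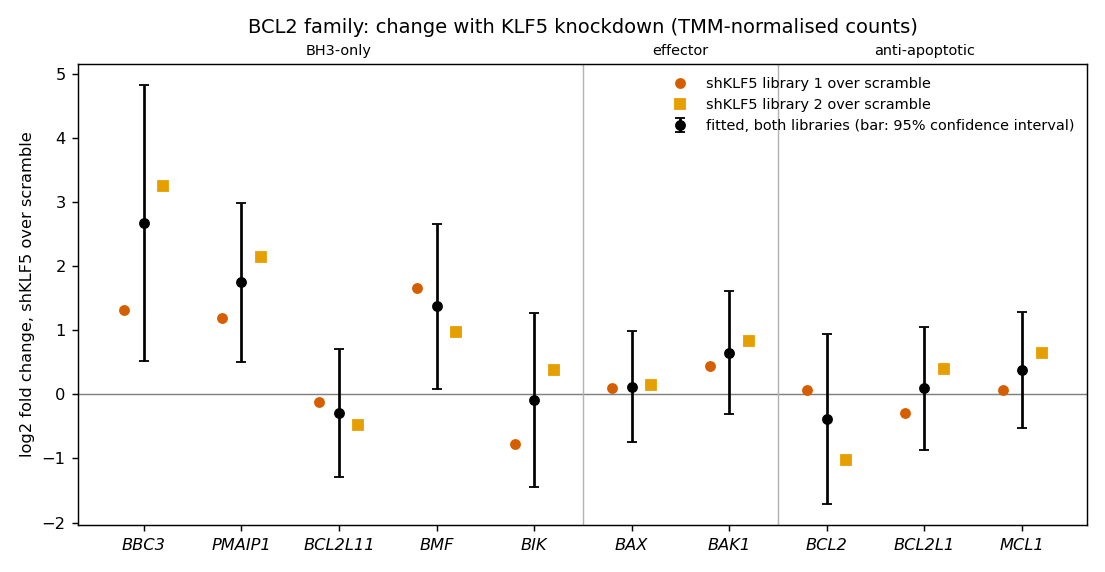
Log2 fold change of shKLF5 over scramble for each gene: black points and bars are the fitted value and its 95% confidence interval, circles and squares are shKLF5 libraries 1 and 2 alone against the same scramble library. The intervals of BBC3, PMAIP1 and BMF lie above 0 before adjustment for the number of genes, and those of the other 7 span 0.

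PMAIP1 and BBC3 were the members with the largest fitted values, and BCL2L11 stood near scramble. For these 3 BH3-only genes the sequences before 1 RefSeq start each are shown. They are the 250 bases before the RefSeq start (GRCh38.p14), written 5′ to 3′, with capitals on each GC box, GGGCGG or its reverse complement CCGCCC, the kind of site that KLF and SP proteins are known to bind:
PMAIP1 promoter, chr18:59899746-59899995, plus strand: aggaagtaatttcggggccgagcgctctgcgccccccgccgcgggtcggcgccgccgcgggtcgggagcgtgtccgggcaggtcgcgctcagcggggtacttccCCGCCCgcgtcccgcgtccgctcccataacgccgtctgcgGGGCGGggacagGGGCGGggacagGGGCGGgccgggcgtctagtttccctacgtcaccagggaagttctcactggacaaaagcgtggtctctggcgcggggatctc
BBC3 promoter, chr19:47232668-47232917, minus strand: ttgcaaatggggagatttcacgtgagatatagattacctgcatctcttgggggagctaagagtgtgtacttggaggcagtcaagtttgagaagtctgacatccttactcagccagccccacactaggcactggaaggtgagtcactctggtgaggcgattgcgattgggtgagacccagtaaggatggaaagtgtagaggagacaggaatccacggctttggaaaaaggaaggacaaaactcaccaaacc
BCL2L11 promoter, chr2:111120664-111120913, plus strand: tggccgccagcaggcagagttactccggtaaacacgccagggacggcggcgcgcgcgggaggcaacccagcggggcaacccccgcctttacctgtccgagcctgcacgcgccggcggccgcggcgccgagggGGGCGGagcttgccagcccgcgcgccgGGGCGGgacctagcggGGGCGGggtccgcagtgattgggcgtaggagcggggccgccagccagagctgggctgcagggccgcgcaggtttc
The PMAIP1 window held 4 GC boxes, that of BCL2L11 3 and that of BBC3 0. By the GENCODE spans printed above, the BCL2L11 window lay inside its gene, and those of PMAIP1 and BBC3 overlapped theirs. Other starts of these 3 genes were not searched. BAK1 had 2, and BAX and BMF had 1 each, for BMF in only 1 of its 2 windows. The 8 member genes with an entry had 10 windows, of which 5 held a GC box, against 42.6% of all 35116 windows. CACCC or its reverse complement GGGTG, also a KLF type of site, lay in 4 of the 10 windows, those of BBC3, BAK1 and BCL2 and 1 of BCL2L1, against 54.7% of all windows. No base lay in more than 1 match, and a match of letters is no measure of binding. BIK and MCL1 had no entry.

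Of the effectors, BAX was close to scramble after scaling and BAK1 was higher by value in both shKLF5 libraries. BAX (ENSG00000087088, chromosome 19, 48954815 to 48961798, plus strand) had 1135 and 1140 counts with shKLF5 against 787 with scramble, which is 31.7 and 32.8 CPM against 29.6 CPM. The shKLF5 libraries were nearly equal and just above scramble, with a log2 fold change of 0.12 (SE 0.37, 95% CI -0.74 to 0.99; adjusted p 0.932 by edgeR's test). In TPM the gap was wider, at 53.2 and 49.7 against 30.4. Transcripts annotated as protein-coding held 46.3% and 41.7% of the BAX level with shKLF5, against 56.9% in scramble. BAX-212, a transcript of 300 bases marked for nonsense-mediated decay, had 7.50 and 7.05 TPM with shKLF5 and was listed at 0 in scramble. That was 14.1% and 14.2% of the BAX level in TPM but, on 31.8 and 31.6 counts, 2.81% and 2.77% of BAX counts. Such short transcripts weigh more in TPM than in counts, also in the coding share above. BAX-202, whose 192 codons give the BAX alpha protein, had 10.4 and 7.68 TPM against 7.61 TPM, and BAX-201, with 218 codons, had 12.6 and 12.0 TPM against 8.82 TPM.

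BAK1 (ENSG00000030110, chromosome 6, 33572547 to 33580293, minus strand), the pore former that sits in the mitochondrial membrane, had 878 and 1111 counts against 477. At 24.5 and 32.0 CPM, both shKLF5 libraries were above the 17.9 CPM of scramble. The log2 fold change was 0.65 (SE 0.41, 95% CI -0.30 to 1.61; adjusted p 0.649 by edgeR's test). All of its level was assigned to coding transcripts, and BAK1-202, of 211 codons, held 78.5% and 74.0% of it with shKLF5 against 69.8% in scramble. The processed pseudogenes BAK1P1 and BAK1P2, to which such reads could be assigned, had at most 2 counts in any library.

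Of the anti-apoptotic genes, MCL1 was somewhat above scramble, BCL2L1 lay on either side of it and BCL2 was low throughout. MCL1 (ENSG00000143384, chromosome 1, 150574551 to 150579738, minus strand), a guardian whose protein turns over quickly, had 5490 and 7914 counts with shKLF5 against 3885 with scramble, or 153 and 228 CPM against 146 CPM. Its log2 fold change was 0.38 (SE 0.39, 95% CI -0.52 to 1.29), with 0.07 in library 1 and 0.64 in library 2. BCL2L1 (ENSG00000171552, chromosome 20, 31664452 to 31723989, minus strand) had 1602 and 2516 counts against 1457, or 44.7 and 72.4 CPM against 54.8 CPM. Library 1 was below scramble and library 2 above it, and the log2 fold change was 0.09 (SE 0.41, 95% CI -0.86 to 1.05). BCL2 (ENSG00000171791, chromosome 18, 63123346 to 63320128, minus strand), the founder of the family, had 250 and 113 counts against 177, or 6.98 and 3.25 CPM against 6.66 CPM. Its log2 fold change was -0.38 (SE 0.58, 95% CI -1.71 to 0.95), and 0.05 with library size alone, beside 0.47 for all genes. The adjusted p of edgeR's test was 0.772 for MCL1, 0.954 for BCL2L1 and 0.850 for BCL2.

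BCL2L1 and MCL1 are each spliced into a long form that protects and a short form known to promote death. The joins that set these forms apart are shown from the coding strand of GENCODE 29 transcripts, 14 bases that both forms share in lower case and the next 14 in capitals:
BCL2L1-201: gagctttgaacaggTAGTGAATGAACTC
BCL2L1-202: gagctttgaacaggATACTTTTGTGGAA
MCL1-202: acggccttccaaggCATGCTTCGGAAAC
MCL1-201: acggccttccaaggATGGGTTTGTGGAG
BCL2L1-202 leaves out 189 bases after base 376 of the coding sequence and stays in frame, so its 170 codons stand against 233 in BCL2L1-201 (BCL-xL). MCL1-201 leaves out 248 bases after base 689, which shifts the frame and gives 271 codons against 350 in MCL1-202. The short BCL2L1-202 had 3.89 and 8.27 TPM with shKLF5, against 2.51 TPM with scramble. The long forms BCL2L1-201 and BCL2L1-203 together had 17.7 and 24.9 TPM against 16.3 TPM. Of these 3 transcripts the short one thus held 18.0% and 24.9% with shKLF5 and 13.4% with scramble. The short MCL1-201 stayed rare, with 1.12 and 2.63 TPM with shKLF5 against 0.168 TPM. It rested on 31.7 and 77.5 estimated counts with shKLF5 and on only 4.91 in scramble. Of the long and short forms together it held 2.30% and 3.91% against 0.519%. Both shares were higher in each shKLF5 library than in scramble, but they rest on the division of shared reads among transcripts, and no test was run on them.

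The transcripts behind the BBC3 and PMAIP1 values were as follows. BBC3-203, whose 193 codons give PUMA alpha, had 1.01 and 3.01 TPM with shKLF5 and under 1 count in scramble. BBC3-202, with 131 codons, had 0.652 and 1.14 TPM against a listed 0. BBC3-204, with 261 codons, went the other way in library 1, listed at 0 and at 0.552 TPM with shKLF5 against 0.238 TPM, or 40.3% of the gene, in scramble. Protein-coding transcripts held 100% and 71.4% of the BBC3 level with shKLF5 against 40.3% in scramble, the rest going to BBC3-205 and BBC3-206, which retain an intron, on only 22 counts in scramble. PMAIP1-202, the 54 codons of NOXA, had 8.43 and 11.8 TPM with shKLF5 against 2.63 TPM. PMAIP1-201, with 136 codons, had 5.01 and 13.2 TPM against 1.69 TPM. PMAIP1-203, which retains an intron, had 1.25 and 4.68 TPM against 0.213 TPM. Every PMAIP1 transcript was thus higher with shKLF5, while the share of PMAIP1-201, at 34.1% and 44.5%, lay on either side of the 37.3% of scramble.

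Of the other transcripts that held at least 10% of a gene in some library, BCL2L11-206, whose 198 codons give the extra-long form of BIM, had 2.01 and 1.44 TPM with shKLF5 against 1.75 TPM. The shorter BCL2L11-202, with 112 codons, had 4.33 and 4.19 TPM against 2.23 TPM, and BCL2L11-207 and BCL2L11-210, both on under 20 counts, had 2.43 and about 0 TPM against 1.10 TPM and 0.192 and 0.290 TPM against 0.737 TPM. BCL2L11 thus held a higher short form and a long form on either side of scramble, in TPM. For BMF, BMF-201 had 1.52 and 0.194 TPM with shKLF5 against 0.227 TPM, BMF-202 had 0.719 and 1.22 TPM against 0.178 TPM, and the non-coding BMF-205 had 0.976 and 0.555 TPM against 0.225 TPM. BMF-201, BMF-202 and BMF-209 have the same 184 codons, and the shKLF5 libraries differed in which of them held most. BAX transcripts that retain an intron were BAX-207, with 5.50 and 4.90 TPM with shKLF5 against 4.93 TPM, BAX-208 with 6.39 and 3.39 against 3.87 TPM, BAX-210 with 6.83 and 6.50 against 2.88 TPM, and BAX-211 with 1.74 and 6.59 against 0.121 TPM. BAX-210 and BAX-211 were higher in both shKLF5 libraries, and BAX-207 and BAX-208 were higher in library 1 and lower in library 2. BAK1-203, with 153 codons, had 3.13 and 4.54 TPM with shKLF5 against 2.36 TPM. BCL2-202 and BCL2-201, of 239 codons each, had 0.876 and 0.382 TPM against 0.620 TPM and 0.549 and 0.218 TPM against 0.335 TPM. The non-coding BCL2-204 had 0.789 and 0.443 TPM against 0.310 TPM, on 9.63 and 5.67 against 3.92 counts. MCL1-203, also non-coding, had 3.13 and 9.35 TPM against 4.48 TPM, and BIK had the single transcript BIK-201.

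**Figure D3:**
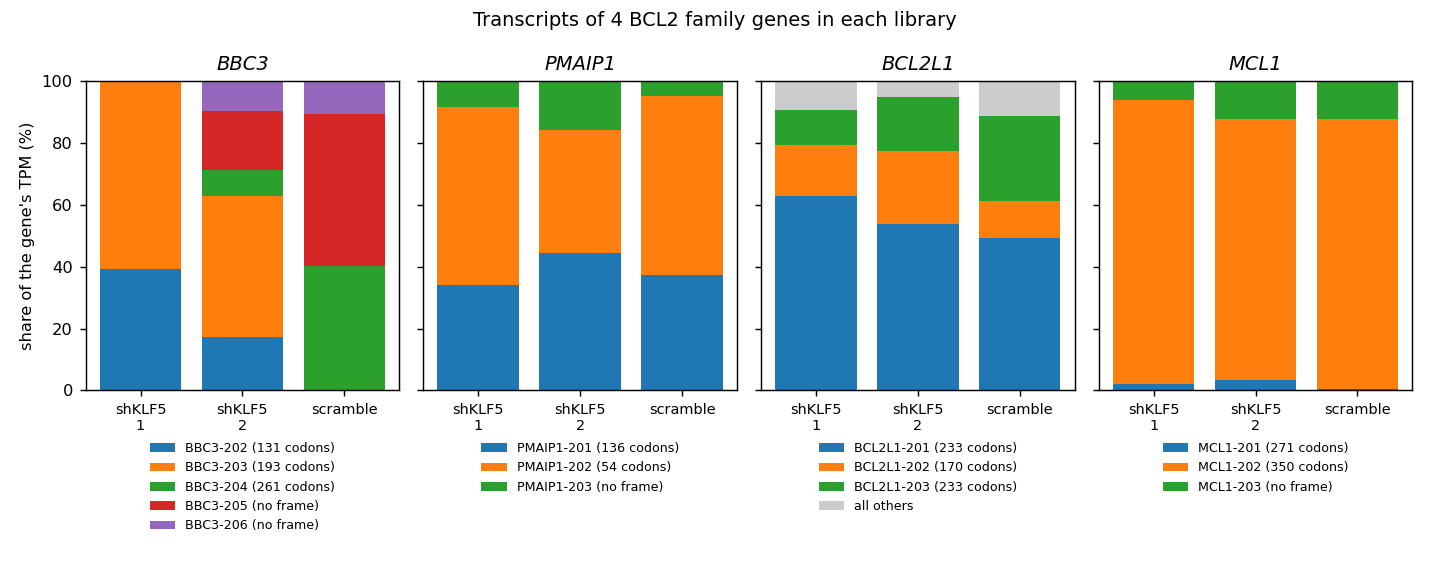
Share of each gene's TPM held by its transcripts in shKLF5 libraries 1 and 2 and in scramble, with the number of codons of each reading frame; grey is the sum of all others. BCL2L1-202 held 16.3% and 23.6% of BCL2L1 with shKLF5 and 11.9% in scramble, while MCL1-202 held most of MCL1 in each library.

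By class, the BH3-only genes had the highest median and the anti-apoptotic genes the lowest after TMM scaling; with limma on log2(TPM + 1) the effector median, at 0.86, was above the BH3-only one, at 0.72. The median log2 fold change was 1.37 for the 5 BH3-only genes, 0.39 for the 2 effectors and 0.09 for the 3 anti-apoptotic genes, against 0.04 for all genes tested. In library 1 the medians were 1.18, 0.27 and 0.07, and in library 2 they were 0.97, 0.49 and 0.40, in the same order. The BH3-only median is that of BMF and came to 0.63 with counts scaled by length, where the median of all genes was 0.03. The class leaves out HRK, BAD and BID, which are also BH3-only genes and stood at 1.31, -0.61 and -0.30. Both shKLF5 libraries lay above scramble in CPM for 6 of the 10 members, BBC3, PMAIP1, BMF, BAX, BAK1 and MCL1, against 37.9% of all genes. They lay below it for BCL2L11 only, against 36.5% of all genes, and on either side for BIK, BCL2 and BCL2L1. The classes were not tested against each other.

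Ratios of summed levels within a library are free of the scaling between libraries, while the sums in TPM are to be read beside the higher TPM of most genes with shKLF5. The BH3-only genes summed to 38.5 and 57.9 TPM with shKLF5 against 21.1 TPM with scramble, and the anti-apoptotic genes to 78.1 and 113 TPM against 59.3 TPM. The ratio of the first sum to the second was 0.493 and 0.514 with shKLF5, a mean of 0.504 ± 0.0154 (SD, n = 2), against 0.356 with scramble. The shKLF5 libraries were close to each other and both above scramble. The ratio leaned on PMAIP1, whose part of the BH3-only sum follows, so it does not show a shift shared by the class. It was not computed without PMAIP1. With protein-coding transcripts only, a choice made after seeing the data, the ratio was 0.471 and 0.481 against 0.349. PMAIP1 made up 38.2% and 51.2% of the BH3-only sum with shKLF5 against 21.5% with scramble. BIK, by contrast, made up 14.6% and 20.0% against 32.5%, and BCL2L11 28.7% and 13.4% against 34.6%. BBC3 remained a small part, at 4.31% and 11.4% against 2.80%. The effectors summed to 68.2 and 67.9 TPM with shKLF5 against 38.2 TPM. Their ratio to the anti-apoptotic sum, at 0.873 and 0.603 against 0.645, lay on either side of scramble. MCL1 made up 66.6% and 68.0% of the anti-apoptotic sum with shKLF5 and 62.0% with scramble.

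**Figure D4:**
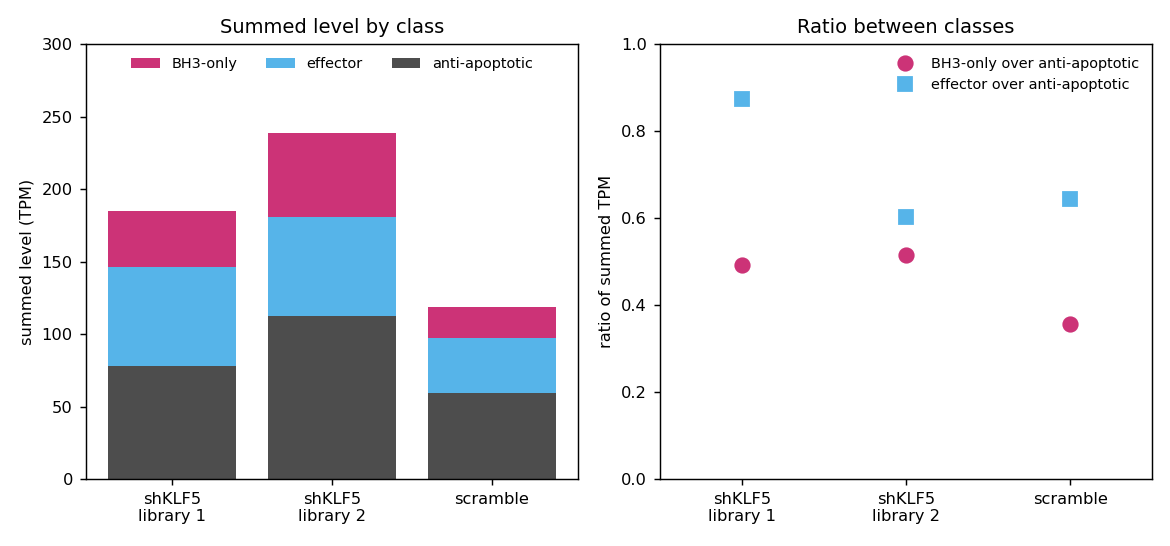
Left, summed TPM of the BH3-only, effector and anti-apoptotic genes in shKLF5 libraries 1 and 2 and in scramble. Right, the ratio of BH3-only (circles) and effector (squares) sums to the anti-apoptotic sum: the BH3-only ratio is 0.493 and 0.514 with shKLF5 and 0.356 in scramble. PMAIP1 alone made up 38.2% and 51.2% of the BH3-only sum with shKLF5 and 21.5% in scramble.

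Other family genes, taken from a list of 13 of which 11 were tested, had a median log2 fold change of -0.22. None passed edgeR's test, and none was under an unadjusted p of 0.05. HRK, a BH3-only gene known mainly from neurons, had 197 and 482 counts with shKLF5 against 104, a log2 fold change of 1.31 (SE 0.65). BAD, a BH3-only protein controlled by phosphorylation, had 545 and 521 counts against 614 and stood at -0.61 (SE 0.39), or -0.18 with library size alone. BCL2L10 and BCL2L14 were near the limit of detection, with 3 and 14 counts against 1 and with 11 and 20 counts against 4. BCL2A1 and BCL2L15, with at most 6 counts in a library, did not pass the filter.

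Genes of the mitochondrial death pathway beside and below the pore were mostly lower by value. Of 16 genes of the mitochondrial pathway 0 passed edgeR's test, and both shKLF5 libraries lay below scramble for 12, against 36.5% of all genes, and above it for 3, against 37.9%, with a median log2 fold change of -0.44. The 3 above were APAF1 at 0.59 and CASP9 at 0.48, the scaffold and initiator caspase of the apoptosome, and DIABLO at 0.65, which binds inhibitors of apoptosis. VDAC3, a channel of the outer membrane, had 2725 and 2373 counts with shKLF5 against 3851 and stood at -1.01 (SE 0.34). VDAC1 stood at -0.59 and PARP1, a DNA repair enzyme cut by caspases, at -0.73. CASP6, an executioner caspase, had 324 and 119 counts against 350 and stood at -1.08 (SE 0.59). The values of all 4 stayed below 0 with library size alone, where VDAC3 stood at -0.58 and the median of all genes at 0.47.

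Among 6 inhibitors of apoptosis, 5 of them tested, BIRC3 stood out. BIRC3, a ubiquitin ligase induced by NF-kB, had 1268 and 662 counts with shKLF5 against 107 with scramble, or 9.24 and 4.39 TPM against 1.12 TPM. Its log2 fold change was 2.76 (SE 0.56), with an adjusted p of 0.342 by edgeR's quasi-likelihood test and 0.00169 by DESeq2. The caspase inhibitor XIAP stood at 0.29, BIRC6 at 0.32 and BIRC5 (survivin), a mitotic protein, at -0.56. Of 14 death receptor genes 11 were tested and 0 passed, with a median of 0.23. TNFRSF10B, the TRAIL receptor DR5, had 3047 and 7053 counts with shKLF5 against 1717, a log2 fold change of 1.16 (SE 0.54). Its ligand TNFSF10 had 145 and 48 counts against 168 and stood at -1.22 (SE 0.66), TNFRSF1A at -0.58 and the initiator caspase CASP10 at 0.72.

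Transcription factors that act on the family and the ubiquitin ligase MDM2 made a further list of 13 genes, with a median of 0.43 and 0 passed by edgeR's test. JUN, an AP-1 subunit, had 2593 and 8073 counts with shKLF5 against 662, a log2 fold change of 2.61 (SE 0.70; adjusted p 0.472 by edgeR's quasi-likelihood test and 0.0121 by DESeq2). DDIT3, the stress factor CHOP, had 1073 and 4302 counts against 559 and stood at 1.87 (SE 0.77). MDM2 had 630 and 694 counts against 310 and stood at 0.69 (SE 0.42). TP63, a transcription factor of squamous basal cells, was at -1.68 (SE 0.49). JUN, DDIT3, BBC3 and PMAIP1 all had their higher CPM in shKLF5 library 2, while BMF and BIRC3 had theirs in library 1. This did not set them apart: BIK, BAX, BAK1, BCL2L1 and MCL1 were also higher in library 2, and BCL2L11 and BCL2 in library 1. The share of all genes higher in library 2 was not counted. Of 6 genes that control MCL1 or signal to survival pathways the median was 0.07: TRIB3, a pseudokinase induced by stress, stood at 1.26, FBXW7, a ubiquitin ligase subunit that targets MCL1, at -0.58, and the ligases HUWE1 and MARCH5 at 0.13 and 0.12.

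**Figure D5:**
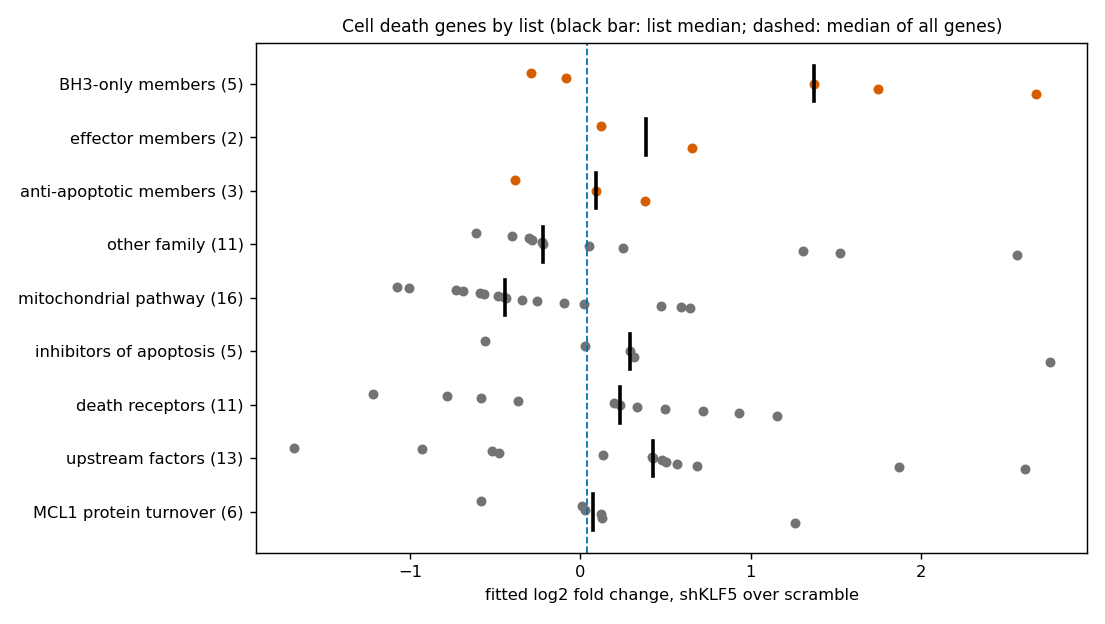
Fitted log2 fold change of shKLF5 over scramble for each tested gene of the 3 classes (orange) and of 6 lists of related genes (grey), with the number tested in brackets. Black bars mark list medians, from 1.37 for the BH3-only genes to -0.44 for the mitochondrial pathway, and the dashed line marks the median of all genes at 0.04.

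Genes whose pair of fold changes in the 2 shKLF5 libraries lay nearest to that of a member were sought among protein-coding genes with a mean of at least 5 CPM, over 3 libraries that share 1 control. Nearest to BBC3 were DNAH17 (227 and 877 counts against 71), XDH (180 and 681 against 57) and ATF3 (2305 and 9979 against 771), at distances of 0.0998, 0.151 and 0.172 on the log2 scale, and 3 of 10376 genes lay within 0.2. Nearest to PMAIP1 were NAV3, TMPRSS9 and MYO15B, at 0.0718, 0.132 and 0.181, with 6 genes within 0.2. Around BCL2L11, 824 of 10375 genes were within 0.2, the nearest being PDP2, RASAL2 and TERF1. The places of the members are less certain than these distances. The SE of the fitted value was 0.93 for BBC3, on 22 counts in scramble, 0.54 for PMAIP1 and 0.43 for BCL2L11.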

How the data were processed

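Each library came as a kallisto-style transcript table; kallisto, DESeq2 and the build hg19 are named, without versions, per the submitters' processing notes. The deposited estimated counts are unnormalised reads per transcript, per the file headers. As deposited, TPM divides counts by effective length and scales each library to 1 sum. Neither the transcript set nor the use of strand is stated in the labels or headers. Of 196354 transcripts 181857 (92.6%) matched GENCODE 29, whose GRCh38 coordinates are printed; the unmatched 3.05% to 3.42% of counts were left out. A symbol with several gene IDs was represented by the one with most counts.

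Estimated counts were summed per gene, rounded, and fitted in R 4.3.3 by edgeR 4.0.16 (quasi-likelihood F test with legacy = FALSE, TMM, filterByExpr, Benjamini-Hochberg over 20629 genes, threshold 0.05), after a check on simulated data. The simulated counts spread less between libraries than the real ones, whose common biological coefficient of variation was 32.9%. That check thus does not show how the test behaves at the spread of these libraries. TMM factors were 1.11 and 1.10 for the shKLF5 libraries and 0.82 for scramble, with 1 residual and 6.86 prior degrees of freedom. SE is the absolute log2 fold change over the square root of F. Fold changes of single libraries, without a test, had a prior count of 2 added. Alternatives used DESeq2 1.42.0 and limma 3.58.1.

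Members, lists and tests were chosen with earlier results of these data known. The text names the members, KLF5, up to 4 genes of lowest p per list, the 3 genes nearest to BBC3, PMAIP1 and BCL2L11, and transcripts with at least 10% of their gene. MCL1-201, APAF1, CASP9, DIABLO, BID, single cell type markers and the genes without enough counts were named outside that rule, after their values were seen. A member of the list of transcription factors is not reported here. The labels and headers name no molecular identifiers, so intervals cover counting error of reads only.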

Additional observations from a re-analysis of the deposited data

How the results depend on the processing

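No member was called by edgeR, its legacy fit, DESeq2 or limma under the alternatives run with a test. The number of all genes called was 0 in the main test, 21 with edgeR's legacy fit and 116 with DESeq2. Of the members' log2 fold changes under alternatives, 106 kept their direction and 13 turned. With library size alone BCL2L11 came to 0.14, BIK to 0.34 and BCL2 to 0.050, and the medians to 1.80 for BH3-only, 0.82 for effector and 0.52 for anti-apoptotic genes, beside 0.47 for all genes. With limma on log2(TPM + 1), where low genes are understated, BCL2L11, BIK and BCL2 came to 0.31, 0.21 and 0.14 and the medians to 0.72, 0.86 and 0.43, which puts the effector genes above the BH3-only genes, beside 0.26 for all genes. With 0.1 as the pseudocount they came to 0.34, 0.23 and 0.19 and to 0.94, 0.91 and 0.45, beside 0.43. With a mean CPM of at least 5, which BBC3 did not pass, BIK came to 0.10, the median of the other 4 BH3-only genes to 0.82 and the effector median to 0.57; with length-scaled counts the BH3-only median was 0.63.

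Leaving out 1 shKLF5 library leaves 1 library a group and no test. The range was then -0.77 to 0.38 for BIK, -1.02 to 0.067 for BCL2 and -0.29 to 0.40 for BCL2L1, and for the medians 0.97 to 1.18 (BH3-only), 0.27 to 0.49 (effector) and 0.067 to 0.40 (anti-apoptotic). With protein-coding transcripts only, added after seeing the data, the BH3-only to anti-apoptotic ratio of the shKLF5 mean exceeded that of scramble by 0.127 in place of 0.147, and the effector ratio differed by -0.00483 in place of 0.0930. The causes of these shifts were not tested. No paired analysis was possible because the scramble group has 1 library. For BBC3, the 22 counts in scramble and the gap between 77 and 294 counts in the shKLF5 libraries both limit the precision.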
